A study of Mus musculus with 9 samples.

Results

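Collagen genes were the 39 of 17134 listed genes whose symbol has the form Col, a number, a and a number, in the files of all 9 libraries. They were grouped by textbook structure into 11 fibrillar, 6 basement membrane and 22 other collagens. The fibrillar class held types I, II, III, V, XI, XXIV and XXVII. Types IV, XV and XVIII were counted as basement membrane. The remaining collagens included type VI, the FACIT collagens that sit on fibril surfaces, the short-chain network formers, the anchoring fibril collagen and the transmembrane collagens.

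The libraries came from whole subcutaneous tumours of MC38, a mouse colon adenocarcinoma line, collected 20 days after implantation into C57BL/6 mice. Knockdown tumours grew from cells with a lentiviral shRNA against Gad1, either GAD1-shA (here shA) or GAD1-shB (shB), and the control tumours from cells with a non-targeting shRNA (NTC), with 3 libraries per group. All groups shared lentiviral infection and puromycin selection, and the shRNA was carried by the implanted cells, not by the host. Whether the lines were clones or pools, and how many mice gave the tumours of a group, is not stated in the labels. The p-values therefore measure the spread between libraries, which may be technical. Gad1, which encodes the enzyme that makes GABA from glutamate, read 13.1 to 50 normalized reads in the 6 knockdown libraries, against 265 to 326 in NTC libraries. A normalized read is a deposited read count divided by 1 factor per library. Depth was 18373748 to 24918174 assigned reads per library.

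Collagens are trimers of alpha chains wound into a triple helix. Fibrillar collagens, above all types I and III, form the cross-striated fibres of interstitial connective tissue and are made mainly by fibroblasts. Type IV collagen forms the sheet-like network of basement membranes under epithelia and around vessels. In a tumour, collagen can come from host stroma and from the cancer cells, and a bulk library cannot tell these apart, nor more cells of a type from more RNA per cell.

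When the average of shA and shB was set against NTC, transcripts of the interstitial fibre collagens were higher in knockdown tumours and those of the type IV basement membrane chains were not called. Of 32 collagen genes that passed the filter of 20 normalized reads in 3 libraries, 10 rose and 1 fell, by limma with a Benjamini-Hochberg adjusted p under 0.05. Over all 14600 genes tested, 15.5% rose and 9.49% fell. The median log2 change was 0.82 over the tested collagen genes and -0.03 over all genes. By class, 4 of 9 tested fibrillar genes rose and 1 fell, none of 5 basement membrane genes was called, and 6 of 18 other collagens rose. The class medians were 0.94, 0.01 and 1.04 on the log2 scale. Of the tested genes, Col8a2, Col20a1 and Col23a1 reached the filter through knockdown libraries alone. Col26a1 had 20 normalized reads in all 3 NTC libraries but in only 1 knockdown library. The counts and medians over tested genes are therefore no evidence of direction by themselves. With no filter, all 39 genes were tested and the counts were again 10 and 1. Without NTC replicate 1, 6 collagen genes rose and none fell, and the only fibrillar gene among them was Col1a2. The fibrillar count was 2 rising without NTC replicate 3. Calls over all genes also shrank in these fits, from 2258 rising and 1386 falling. They were 1483 and 522 without NTC replicate 1, and 1709 and 643 without NTC replicate 3.

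**Figure D1:**
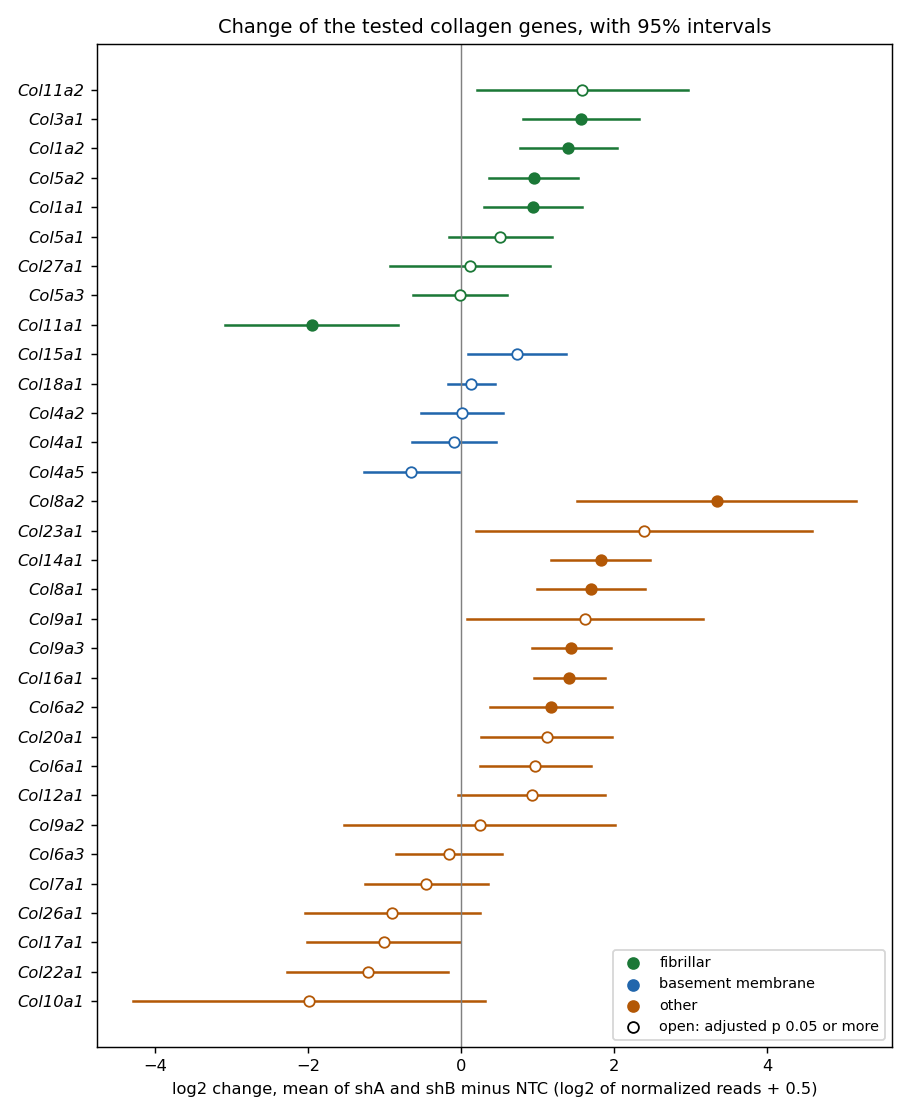
Log2 change of each tested collagen gene, the mean of shA and shB minus NTC, with its 95% interval from limma; colours give the class, filled points passed an adjusted p of 0.05 and open points did not. The 10 filled points right of 0 are fibrillar or other collagens, the 1 filled point left of 0 is Col11a1, and all 5 basement membrane genes are open.

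RefSeq promoter windows on GRCm38.p6, 250 bases before to 50 after a gene's start, were found for 31 of the 39 members. The submitters' processing notes name mm9, so these positions are of another build than theirs. The other members are Col1a1, Col2a1, Col5a2, Col9a3, Col12a1, Col14a1, Col22a1 and Col26a1. The windows below are of 2 fibrillar genes that rose, the fibrillar gene that fell, and the type IV pair. Capitals mark matches, on either strand, to CCAAT, to TATAAA and to GGGCGG.
Col1a2 (chr6:4505368-4505667, + strand): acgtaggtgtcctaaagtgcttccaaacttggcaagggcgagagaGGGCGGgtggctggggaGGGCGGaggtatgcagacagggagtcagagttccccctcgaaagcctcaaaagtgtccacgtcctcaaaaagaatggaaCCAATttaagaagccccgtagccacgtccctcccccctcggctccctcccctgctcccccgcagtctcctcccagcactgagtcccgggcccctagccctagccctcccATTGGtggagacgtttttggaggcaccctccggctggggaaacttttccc
Col3a1 (chr1:45311288-45311587, + strand): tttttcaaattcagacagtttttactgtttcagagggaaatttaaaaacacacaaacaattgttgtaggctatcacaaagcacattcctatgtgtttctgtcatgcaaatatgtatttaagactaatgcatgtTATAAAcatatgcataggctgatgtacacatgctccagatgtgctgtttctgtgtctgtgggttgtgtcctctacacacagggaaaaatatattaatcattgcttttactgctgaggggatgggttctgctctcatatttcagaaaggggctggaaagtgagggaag
Col11a1 (chr3:114030290-114030589, + strand): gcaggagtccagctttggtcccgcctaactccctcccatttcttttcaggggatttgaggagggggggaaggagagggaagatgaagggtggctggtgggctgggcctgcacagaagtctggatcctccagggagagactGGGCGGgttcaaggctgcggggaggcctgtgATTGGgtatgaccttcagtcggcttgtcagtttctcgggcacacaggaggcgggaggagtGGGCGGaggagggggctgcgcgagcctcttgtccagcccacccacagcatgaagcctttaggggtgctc
Col4a1 (chr8:11312777-11313076, - strand): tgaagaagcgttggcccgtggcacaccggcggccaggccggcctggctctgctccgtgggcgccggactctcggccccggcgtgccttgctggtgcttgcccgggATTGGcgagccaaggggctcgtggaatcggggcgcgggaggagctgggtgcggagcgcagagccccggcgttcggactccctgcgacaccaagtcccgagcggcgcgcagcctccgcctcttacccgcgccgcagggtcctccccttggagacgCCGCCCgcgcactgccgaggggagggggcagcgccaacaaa
Col4a2 (chr8:11312555-11312854, + strand): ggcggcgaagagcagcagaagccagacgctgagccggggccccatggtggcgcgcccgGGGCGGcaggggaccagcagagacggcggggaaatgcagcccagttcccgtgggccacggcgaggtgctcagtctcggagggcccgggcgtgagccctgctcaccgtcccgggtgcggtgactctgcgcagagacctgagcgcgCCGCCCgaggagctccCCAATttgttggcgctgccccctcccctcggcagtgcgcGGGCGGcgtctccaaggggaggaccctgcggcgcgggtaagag
The windows of Col4a1 and Col4a2 share 78 bases, read from opposite strands, since the genes start head to head with transcripts that overlap by 22 bases, whose reads cannot be told apart without a strand setting. The Col1a2 window held 2 matches to CCAAT and 2 to GGGCGG, and that of Col3a1 held 1 to TATAAA and none to the others. Col11a1 had 1 match to CCAAT and 2 to GGGCGG. The type IV windows held 1 match to CCAAT each, and 1 and 3 to GGGCGG for Col4a1 and Col4a2. Of the 34 collagen windows, 35.3% held CCAAT, 14.7% TATAAA and 55.9% GGGCGG, against 37.4%, 13.6% and 35.7% of all 32851 windows in the table. A match is a run of letters and was not shown to be a bound site.

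Type I and type III transcripts, the bulk of fibrillar collagen, were higher in knockdown tumours. Col1a2, the alpha-2 chain of type I, read 7408, 4941 and 3810.0 normalized reads in shA libraries and 9366, 6202 and 4307 in shB libraries, against 1586, 2854 and 2249 in NTC libraries. Every knockdown library lay above every NTC library. Here and below, lack of overlap between groups describes single genes. The share of all genes without overlap is not given, so it cannot be read as particular to collagens. The log2 change was 1.399 (SE 0.28), a 2.64-fold rise, with an adjusted p of 0.00645 in limma, and it also passed with shA (1.26) and with shB (1.54) alone. Col1a1, the alpha-1 chain, read 8281, 5559.6 and 4686 in shA, 11126, 7216 and 4672 in shB, and 2521, 4396 and 3630.1 in NTC libraries. The groups did not overlap, but the lowest knockdown library lay close to the highest NTC library. Its log2 change was 0.94 (SE 0.29), with an adjusted p of 0.0375 in limma for both shRNAs, 0.0452 for shB and 0.119 for shA. The call did not survive the removal of any 1 of 5 libraries, NTC replicates 1 and 3, shA replicates 1 and 2 or shB replicate 2, with adjusted p up to 0.176. Col3a1, the only chain of type III collagen, read 6145, 4436 and 3207 in shA, 10436, 5972 and 4152 in shB, and 1398, 2988 and 1378 in NTC libraries. All knockdown libraries were again above all NTC libraries. It rose by 1.57 on the log2 scale (SE 0.34), or 2.97-fold, with an adjusted p of 0.00886 in limma, which became 0.0509 without NTC replicate 1.

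The minor fibrillar chains moved in different directions. Col5a2, a chain of type V collagen that helps to start type I fibrils, read 1194, 1228 and 863 in shA, 1737, 930.2 and 976 in shB, and 454, 868 and 496 in NTC libraries. The NTC library at 868 lay above shA replicate 3, so the groups overlapped. The log2 change was 0.95 (SE 0.26), with an adjusted p of 0.0252 in limma, and the call was lost without NTC replicate 1 or 3 (adjusted p up to 0.125). The other type V chains were not called: Col5a1 had a log2 change of 0.51 (95% interval -0.16 to 1.18) and Col5a3 of -0.01 (-0.62 to 0.60).

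Col11a1, a type XI chain that starts fibrils in cartilage, was the only collagen gene that fell. It read 40.3, 150.5 and 283 in shA, 163, 129 and 87.8 in shB, and 397, 507 and 523 in NTC libraries. No knockdown library reached the lowest NTC library. The log2 change was -1.96 (SE 0.50), or 3.88 times less, at a limma adjusted p of 0.0192, and it was close with shA (-1.97) and shB (-1.94). Leaving out NTC replicate 1, 2 or 3 ended the call (adjusted p up to 0.0709), while the log2 change then stayed between -2.27 and -1.57 over all single libraries left out. Its partner Col11a2 was low and not called, at 43.6, 20.6 and 50 in shA, 32.2, 86.4 and 65.3 in shB, and 4.51, 21.1 and 31.7 in NTC libraries. Col27a1 had a log2 change of 0.12 (95% interval -0.93 to 1.16). Col2a1, the main collagen of cartilage, and Col24a1 did not pass the filter, with at most 12.5 and 31.6 normalized reads in any library.

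**Figure D2:**
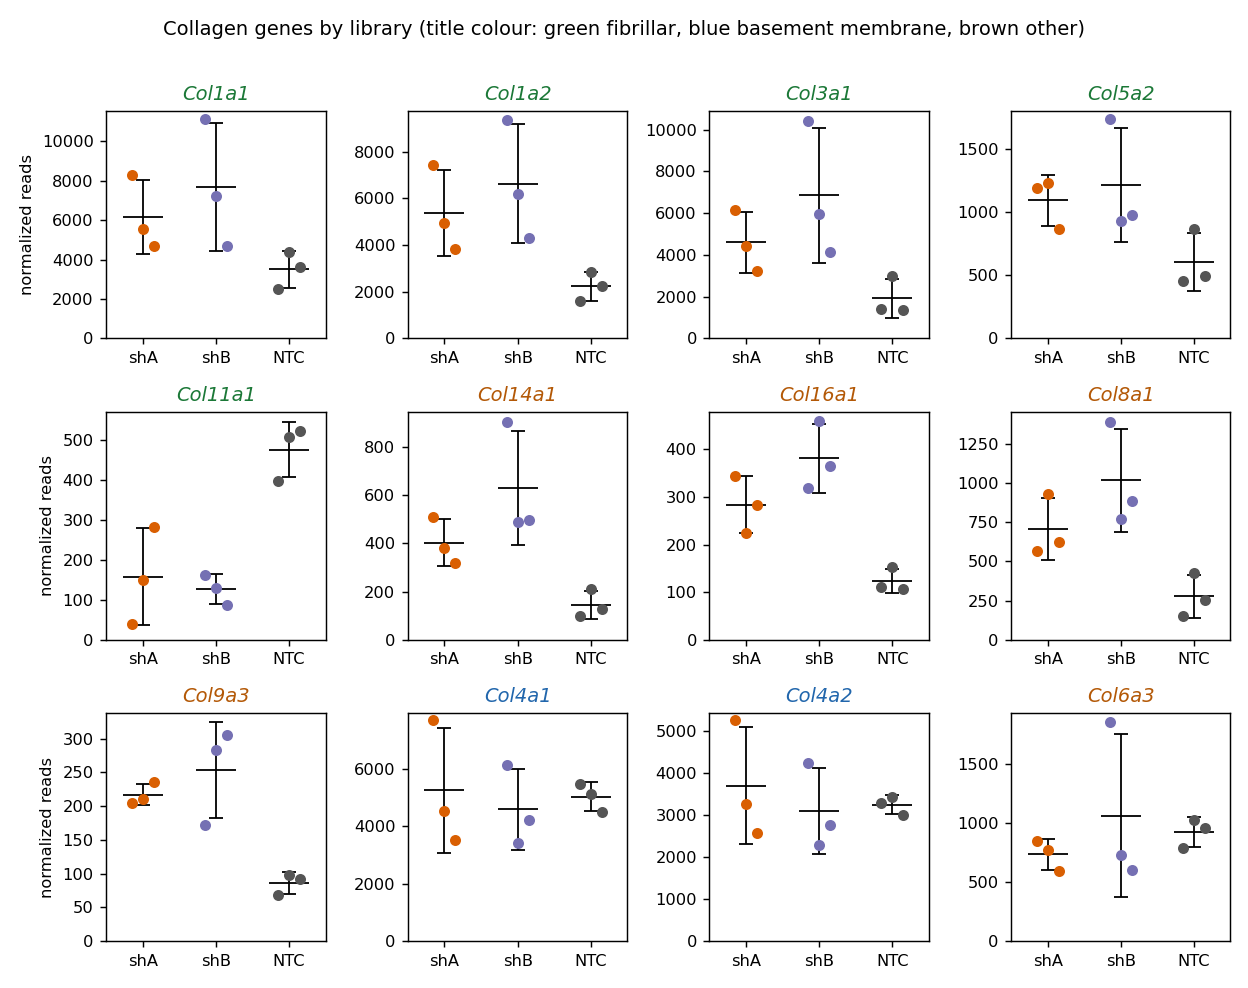
Normalized reads of 12 collagen genes by library (points), with the mean and SD of each group (3 libraries), on axes that start at 0. Col1a1, Col1a2, Col3a1, Col14a1, Col16a1, Col8a1 and Col9a3 are higher in every knockdown library than in any NTC library. Col11a1 is lower in every one, and the groups overlap for Col5a2, Col4a1, Col4a2 and Col6a3. The share of all genes without overlap is not given.

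The type IV chains of the common basement membrane network were not called, and their knockdown libraries lay on both sides of the NTC range. Col4a1 read 7721, 4538 and 3512 normalized reads in shA, 6137, 3406 and 4229 in shB, and 5488, 5133 and 4504 in NTC libraries. The log2 change was -0.09, with a 95% interval of -0.65 to 0.46 and an adjusted p of 0.812 in limma. Col4a2 read 5267, 3251 and 2576 in shA, 4249, 2296 and 2762 in shB, and 3286, 3438 and 2995 in NTC libraries. Its log2 change was 0.01, with a 95% interval of -0.52 to 0.54. In shA replicate 1 and shB replicate 1, both chains lay above every NTC library, and in the 4 other knockdown libraries Col4a1 was at 3406 to 4538. With limma array weights, which did not converge, both chains were called as falling, with adjusted p of 0.00855 for Col4a1 and 0.0183 for Col4a2.

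The less abundant basement membrane collagens were not called either. Col4a5 was lower in all 6 knockdown libraries, at 36.5 to 71.9, than in the NTC libraries, at 86.7 to 97.4; its log2 change of -0.65 (95% interval -1.27 to -0.03) had an adjusted p of 0.115 in limma, and it passed only with the array weights (0.02275). Col15a1, found where basement membranes meet the interstitial matrix, read 3196, 2035 and 1345 in shA, 2435, 1497 and 1450.2 in shB, and 826, 1421 and 1276 in NTC libraries. The groups overlapped in 1 library, and the log2 change was 0.73 (95% interval 0.09 to 1.37) with an adjusted p of 0.0926. It was called without shA replicate 3 and with DESeq2 (adjusted p 0.038 and 0.0373). Col18a1, whose C-terminal fragment is endostatin, had the narrowest interval of the class, -0.18 to 0.44 around a log2 change of 0.13, with 1261 ± 199 normalized reads in shA, 1367 ± 196 in shB and 1193 ± 115 in NTC (SD, n = 3 each). Col4a4 did not pass the filter, at 6.76 to 19.6.

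Summed over each class, fibrillar collagens read 13879 to 35057 normalized reads in knockdown libraries, against 7156 to 13127 in NTC libraries. Basement membrane collagens read 8433 to 17548 in knockdown and 10061 to 11183 in NTC libraries, and other collagens 5719 to 10065 in knockdown and 3872 to 4585 in NTC libraries. The first and the last of these sums did not overlap between knockdown and NTC, and the basement membrane sum did. The fibrillar sum was 1.42 to 2.58 times the basement membrane sum in knockdown libraries and 0.650 to 1.17 times in NTC libraries. Fibrillar collagens took 49.05% ± 1.48 of collagen reads in shA, 55.3% ± 6.09 in shB and 39.3% ± 6.51 in NTC tumours (SD, n = 3 each). Col4a1 and Col4a2 together took 22.9% ± 1.60 in shA, 18.3% ± 3.41 in shB and 33.8% ± 5.36 in NTC (SD, n = 3 each). Collagen genes as a whole took only 0.138% to 0.308% of assigned reads in knockdown and 0.106% to 0.142% in NTC libraries. These sums are descriptions with no test.

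**Figure D3:**
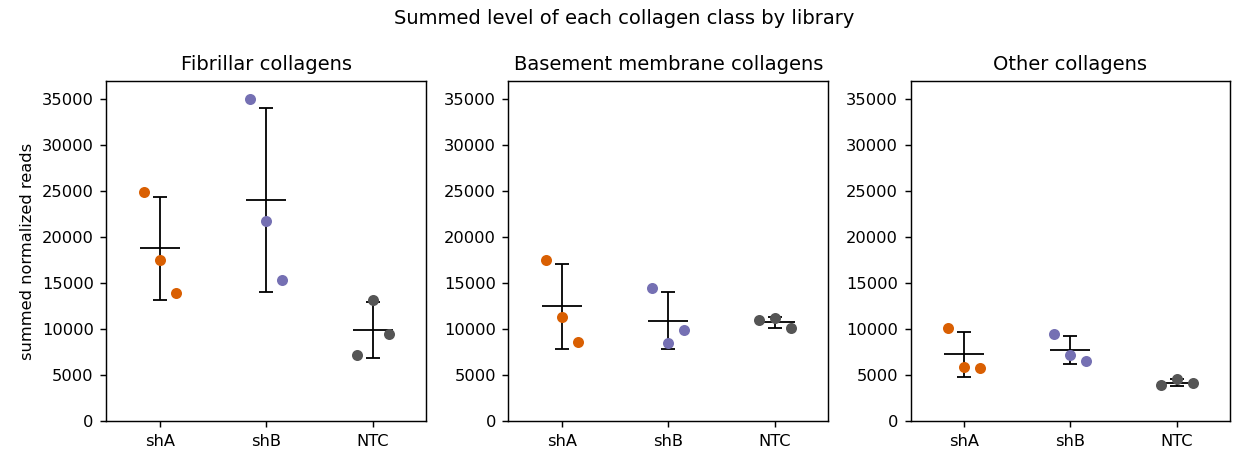
Summed normalized reads of the fibrillar, basement membrane and other collagens by library (points), with the mean and SD of each group (3 libraries). Fibrillar sums are 13879 to 35057 in knockdown against 7156 to 13127 in NTC libraries, while basement membrane sums overlap.

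Among the FACIT collagens, which bind to fibril surfaces and link them to other matrix, 3 of 8 tested genes rose and none fell. Over all genes 15.5% rose and 9.49% fell. Col16a1 read 343, 223 and 284 in shA, 319, 461 and 365 in shB, and 110.4, 153 and 107 in NTC libraries. Its log2 change of 1.41 (SE 0.21) had the smallest p of the collagen genes, with an adjusted p of 0.00145 in limma. Col14a1, which regulates fibril diameter, read 509, 383 and 319 in shA, 906, 490.2 and 499 in shB, and 98.0, 210 and 128 in NTC libraries, and rose 3.54-fold with an adjusted p of 0.00195 in limma. Col9a3, a chain of type IX collagen known from cartilage, read 205, 211 and 235 in shA, 172, 284 and 305 in shB, and 67.6, 97.4 and 92.1 in NTC libraries. All 3 genes were higher in every knockdown than in any NTC library, and each passed with shA and with shB alone. The partner chains of type IX were less even: Col9a1 ranged from 98.0 to 1137 in knockdown and from 68.7 to 226 in NTC libraries, with an adjusted p of 0.116 and a call without shA replicate 1, and Col9a2 had a log2 change of 0.24 (95% interval -1.53 to 2.02). Col20a1, which passed the filter through knockdown libraries alone, read 20.7, 16.8 and 19.7 in shA, 21.8, 36.3 and 43.9 in shB, and 14.6, 10.0 and 9.596 in NTC libraries. It was called with shB (adjusted p 0.0389 in limma) but not for both shRNAs (log2 change 1.12, adjusted p 0.0593). For both shRNAs it passed without shB replicate 1, with edgeR and with DESeq2. Col12a1 and Col22a1 had log2 changes of 0.92 and -1.22 and were not called, and Col19a1 did not pass the filter. In the GRCm38 annotation Col9a3 shares 234 exon bases with Tcfl5 on the opposite strand, and with no strand setting stated their reads there cannot be told apart.

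Both chains of type VIII collagen, which forms short-chain networks in vessel walls and the cornea, were called, but Col8a2 reached the filter through knockdown libraries alone. Col8a1 read 565, 932 and 624 in shA, 1393, 773 and 887 in shB, and 152, 424 and 254 in NTC libraries, and rose by 1.70 (SE 0.32) on the log2 scale, at a limma adjusted p of 0.00434. Col8a2 was scarce, at 31.6, 35.5 and 28.7 in shA, 37.4, 16.7 and 27.0 in shB, and 0, 7.03 and 5.76 in NTC libraries. The lowest knockdown library was above the highest NTC library for both chains. The fitted log2 change of Col8a2 was 3.34 (SE 0.82, adjusted p 0.0152 in limma), but it depended on NTC libraries near 0: it was 2.08 without NTC replicate 1 and 4.04 without NTC replicate 2. Col10a1, a network former of growth plate cartilage, read 353 in NTC replicate 1 whereas replicates 2 and 3 of NTC read 48.2 and 28.8, and knockdown libraries 3.48 to 54.5; its adjusted p was 0.190.

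Type VI collagen, which forms beaded microfilaments near cell surfaces, split by chain. Col6a2 read 3230, 1101 and 916 in shA, 1567, 1263 and 903 in shB, and 502, 657 and 633 in NTC libraries. It rose 2.26-fold with an adjusted p of 0.0375 in limma, and leaving out NTC replicate 1, 2 or 3 or shB replicate 2 ended the call (adjusted p up to 0.145). Col6a1 read 2832, 1270 and 996 in shA, 1855, 1302 and 926 in shB, and 579, 832 and 782 in NTC libraries. Its groups did not overlap either, yet its log2 change of 0.97 (95% interval 0.25 to 1.69) just missed the threshold, at an adjusted p of 0.0538. It was called with edgeR, with DESeq2, and without shA replicate 1 or 3 or shB replicate 3. Col6a3 read 847, 774 and 592 in shA, 1860, 729 and 605 in shB, and 787, 1031 and 962 in NTC libraries, with a log2 change of -0.16 (95% interval -0.85 to 0.54). Only shB replicate 1 stood above the NTC range for Col6a3. Col6a4 did not pass the filter; it read 46.8 in shA replicate 1 and at most 10.1 elsewhere.

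The remaining collagens were not called. Col7a1, of the anchoring fibrils that tie epithelia to the matrix, had a log2 change of -0.45 (95% interval -1.26 to 0.35). Col17a1, a hemidesmosome protein, was at 12.8 to 67.5 in knockdown and 35.1 to 80.6 in NTC libraries, with an adjusted p of 0.128, and fell without shA replicate 1. The transmembrane collagen Col23a1 read at most 31.5, and Col13a1 and Col28a1 did not pass the filter. Col26a1, which reached the filter through the NTC libraries, had a log2 change of -0.90 (95% interval -2.05 to 0.25).

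The ratio of partner chains separated the groups in 2 of 6 pairs, Col1a1 over Col1a2 and Col6a3 over Col6a1. Type I collagen is mostly a heterotrimer with more alpha-1 than alpha-2 chains. The ratio of Col1a1 to Col1a2 normalized reads was 1.12, 1.13 and 1.23 in shA and 1.19, 1.16 and 1.08 in shB, against 1.59, 1.54 and 1.61 in NTC libraries. No knockdown library came near the NTC ratios, and the spread within each group was small, with means of 1.16 ± 0.0627 in shA, 1.15 ± 0.0539 in shB and 1.58 ± 0.0375 in NTC (SD, n = 3 each). Per kilobase of exon the ratio was 0.978 to 1.46 over all libraries. The ratio of Col6a3 to Col6a1 was 0.299 to 1.00 in knockdown and 1.23 to 1.36 in NTC libraries, also with no overlap. That of Col6a1 to Col6a2 was 0.877 to 1.18 in knockdown and 1.15 to 1.27 in NTC libraries, and that of Col4a1 to Col4a2 was 1.36 to 1.53 and 1.49 to 1.67. The ratio of Col5a1 to Col5a2 was 0.581 to 0.856 in knockdown and 0.842 to 1.19 in NTC libraries. That of Col8a1 to Col8a2 was 17.9 to 46.3 in knockdown libraries and 60.3 and 44.2 in NTC replicates 2 and 3, while NTC replicate 1 had no Col8a2 read. These last 4 pairs overlapped. Exon lengths are from a GRCm38 annotation; they are the same for every library, so they do not bear on the difference between groups. These ratios are given with no test, and no other gene pairs are given to set the 2 of 6 against. Col6a1 alone did not overlap between knockdown and NTC libraries and Col6a3 did, so their ratio partly restates the single chains.

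**Figure D4:**
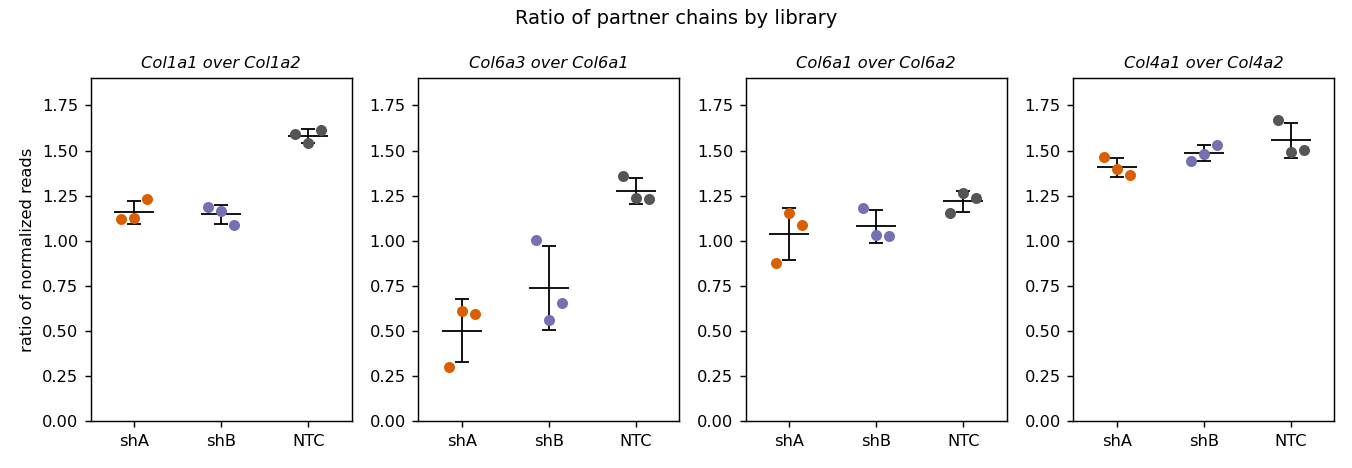
Ratio of normalized reads of partner collagen chains by library (points), with the mean and SD of each group (3 libraries). Col1a1 over Col1a2 lies at 1.08 to 1.23 in knockdown and 1.54 to 1.61 in NTC libraries, Col6a3 over Col6a1 is also lower in every knockdown library, and the 2 other pairs overlap.

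Levels were compared between genes per kilobase of exon. In NTC tumours the order was led by Col4a1 at 762 normalized reads per kilobase, then Col1a1 at 593, Col4a2 at 502, Col1a2 at 417 and Col3a1 at 345. In shA tumours Col1a1 (1041) and Col1a2 (1007) led, before Col3a1 (826), Col4a1 (795) and Col4a2 (573). In shB tumours Col1a1 (1294), Col1a2 (1239) and Col3a1 (1232) led, before Col4a1 (694) and Col4a2 (481). Neighbours in these orders differed by less than the larger of their SDs, except Col4a1 and Col1a1 in NTC tumours and Col4a1 and Col4a2 in shB tumours. Genomic neighbours were also set side by side. Col3a1 and Col5a2, adjacent in the RefSeq gene table, rose by 1.57 and 0.95, Col6a1 and Col6a2 had changes of 0.97 and 1.18, of which the second was called, and Col4a1 and Col4a2 had changes of -0.09 and 0.01 on the log2 scale.

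Each shRNA was also set against NTC on its own. With shA alone, 7 collagen genes rose and 1 fell, against 11.4% and 5.59% of all genes, and with shB alone 10 rose and 1 fell, against 13.4% and 7.02% of all genes. The same 7 genes rose with both, namely Col1a2, Col3a1, Col8a1, Col8a2, Col9a3, Col14a1 and Col16a1, and Col11a1 fell with both. The comparisons share the NTC libraries, and Col8a2 reached the filter through knockdown libraries alone. The shA count was 3 rising without NTC replicate 1 or shA replicate 2 and 4 without NTC replicate 3 or shA replicate 1, and the shB count was 6 rising without shA replicate 2 or shB replicate 2. In 7 of the 9 fits that left out 1 library no collagen gene fell with shA, and in 6 none fell with shB. Calls over all genes varied too. With shA, 1037 to 2263 rose and 231 to 1729 fell in these 9 fits, against 1662 and 816 in the main test. With shB, 1318 to 2397 rose and 479 to 1840 fell, against 1958 and 1025. The difference between shA and shB was tested directly. No collagen gene passed in limma as higher or lower, and 0 of all genes were called in either direction (0% and 0%). Among the collagen genes none had an unadjusted p under 0.05, the lowest adjusted p was 0.680, and edgeR and DESeq2 called none. Over all genes 1010 had an unadjusted p under 0.05. The 95% intervals of the shA minus shB difference were 0.71 to 5.32 wide on the log2 scale; for Col1a2 the interval was -1.01 to 0.45 and for Col4a1 -0.48 to 0.80.

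Genes that modify collagen chains in the endoplasmic reticulum fell or were not called. Of 18 tested genes of hydroxylation, glycosylation and folding, none rose and 6 fell, while 15.5% of all genes rose and 9.49% fell. The list median was -0.11 on the log2 scale. Some uncalled genes, named after their values were seen, did not overlap between knockdown and NTC libraries. P4ha3 (adjusted p 0.0520 in limma), Plod3 and Creb3l1 were higher in every knockdown library, and P4hb was lower. Plod2, which hydroxylates lysines that later form cross-links, read 1036, 1582 and 1934 in shA, 1536, 1519 and 1501 in shB, and 5038, 4179 and 4005 in NTC libraries. It fell 2.94-fold, with an adjusted p of 0.000568 in limma. Fkbp10, an endoplasmic reticulum chaperone of procollagen, and P3h4, a part of a lysyl hydroxylase complex, fell 2.61-fold and 2.47-fold, each at a limma adjusted p of 0.000508. P4ha2, a subunit of prolyl 4-hydroxylase, fell 1.96-fold. The other falling genes, Plod1 at 1.51-fold and Serpinh1, the collagen chaperone HSP47, at 1.35-fold, were named after their values were seen; the Serpinh1 call was lost without NTC replicate 1 or 2 (adjusted p up to 0.0958). With edgeR 1 gene of this list rose, with DESeq2 3 did, and 6 fell with each. Without NTC replicate 2, shA replicate 2 or shB replicate 1, 1 gene rose.

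Genes that act on secreted collagen rose or were not called. Of 12 tested genes of procollagen trimming and cross-linking 4 rose and none fell, while 15.5% of all genes rose and 9.49% fell. The list median was 1.10 on the log2 scale, and 1 gene fell without shA replicate 1. Pcolce2 and Loxl4, named after their values were seen, were not called and reached the filter through knockdown libraries alone. The count and median of this list are therefore no evidence of direction by themselves. Loxl1, a lysyl oxidase, read 322, 291 and 186 in shA, 452, 248 and 298 in shB, and 43.9, 143 and 58.5 in NTC libraries, a 4.01-fold rise with an adjusted p of 0.00416 in limma. Tll1, a procollagen C-proteinase, rose 4.56-fold (limma adjusted p 0.00124) and Tgm2, a transglutaminase, 6.56-fold (limma adjusted p 0.00296). Pcolce, an enhancer of C-propeptide removal, rose 2.14-fold, and its call was lost without NTC replicates 1 or 3 or shB replicates 2 or 3. Of 13 genes of fibril organising proteoglycans and glycoproteins 9 rose and none fell, with a list median of 2.02, also with Fmod at the bound given below. Of these 9, Fmod and, named after their values were seen, Ogn and Prelp reached the filter through knockdown libraries alone, so count and median are no evidence of direction by themselves. Bgn read 4041, 2968 and 2324 in shA, 4711, 2970.4 and 2443 in shB, and 840.4, 1351 and 981 in NTC libraries, a 3.03-fold rise with an adjusted p of 0.00167 in limma. Fmod, which binds type I fibrils, had no read in NTC tumours, and its knockdown mean was at least 11.6-fold higher than a floor of 3 counts per library that covers counting error only. Postn, which binds type I collagen, rose 4.05-fold.

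Basement membrane partners moved in both directions. Of 14 tested genes 4 rose and 2 fell, with a list median of 0.07, while 15.5% of all genes rose and 9.49% fell. Without shB replicate 1 the counts were 6 and 4, and over all 14600 genes 3000 rose and 2498 fell, against 2258 and 1386 in the main test. Lamb1, a laminin chain named after its values were seen, rose 1.87-fold, a call lost without NTC replicate 1 or 3. The laminin chains Lama3 and Lama4 rose 3.12-fold and 1.88-fold, at limma adjusted p of 0.00848 and 0.00294. Agrn, a basement membrane proteoglycan, fell 1.58-fold (adjusted p 0.00715 in limma). Pxdn, the peroxidase that cross-links type IV collagen, was named after its values were seen and fell 1.60-fold (adjusted p 0.0198 in limma), a call lost without NTC replicate 2 or 3. Of 8 collagen receptors 5 rose and none fell, with a list median of 1.13. Lair1, an inhibitory collagen receptor of leukocytes, rose 6.26-fold (adjusted p 0.00178 in limma); its log2 change was 2.65, and 1.99 without NTC replicate 1. Mrc1 and Mrc2, endocytic receptors, rose 4.39-fold and 2.63-fold, and Ddr2, a receptor tyrosine kinase for fibrillar collagen, 2.64-fold. Itga1, an integrin chain named after its values were seen, had an adjusted p of 0.04997 in limma, and its call was lost in 7 of the 9 fits that left out 1 library. The calls of Mrc2 and Ddr2 were lost without NTC replicate 1 or 3, and 2 receptors rose without either of these libraries. Of 6 collagen-degrading enzymes 2 rose, Mmp2 by 3.61-fold and Ctsk by 2.71-fold (adjusted p 0.000267 and 0.0151 in limma), with a list median of 0.76; the Ctsk call was lost without NTC replicate 3.

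**Figure D5:**
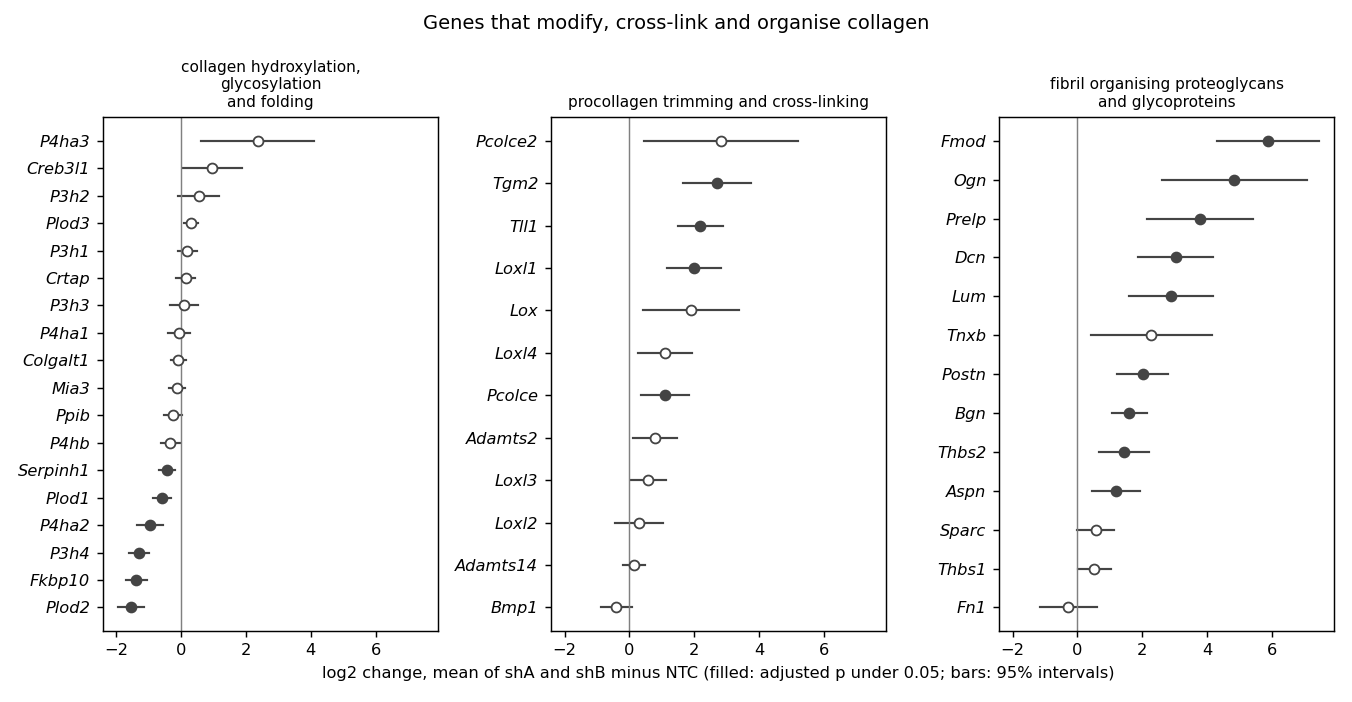
Log2 change, the mean of shA and shB minus NTC, with 95% intervals, of the tested genes of collagen hydroxylation, glycosylation and folding (18 genes), trimming and cross-linking (12) and fibril organisation (13); filled points passed an adjusted p of 0.05. The filled points of the first list are all left of 0 and those of the other lists are all right of 0; Fmod has 0 reads in NTC, so its plotted value depends on the added 0.5.

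Markers of several cell types moved with the collagen genes, and their part in these results was not tested. Of 12 tested fibroblast markers 8 rose and 2 fell, against 15.5% and 9.49% of all genes. Their summed level was 9068 to 11479 normalized reads in knockdown and 7580 to 7706 in NTC libraries. Fbln1, named after its values were seen, was the highest of these markers in every library and weighs most in that sum. It read 3212 to 6036 in knockdown and 2711 to 3553 in NTC libraries, so its groups overlapped. The rise of Fbln1 was not called without NTC replicate 2. Dpt, a matrix protein of skin fibroblasts that reached the filter through knockdown libraries alone, read 81.1 to 293 in knockdown libraries and 1.13 to 16.1 in NTC libraries; its log2 change of 5.00 was 4.35 without NTC replicate 1 and 6.02 without NTC replicate 2. Dcn, which is also in the proteoglycan list, rose 8.14-fold and Mfap5 5.93-fold (log2 change 2.57, and 1.92 without NTC replicate 1), whereas Twist1 fell 2.03-fold; Pdgfrb, named after its values were seen, fell 1.58-fold, a call that 7 of the 9 single libraries ended when removed. Macrophage markers summed to 12930 to 25047 in knockdown and 1673 to 3547 in NTC libraries, with 8 of 9 risen against 15.5% of all genes.

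The other marker lists were read against the shares of all genes, 15.5% rising and 9.49% falling. The counts of all these lists except skin keratinocyte changed when some single library was left out. Counts over all genes changed as well, to between 1483 and 3000 rising and between 522 and 2498 falling. The calls of Eng, Cdh1, Krt7, Lor, Pnpla2, Runx2 and Sp7 held in each such fit. Called genes of these lists outside the naming rule were named after their values were seen. Of 8 pericyte and smooth muscle genes none rose and 2 fell, Kcnj8 and Abcc9, with sums of 1242 to 5149 in knockdown and 1661 to 2445 in NTC libraries. No pericyte gene fell without NTC replicate 1 or 2, shA replicate 2 or shB replicate 2, 1 fell without replicate 3 of any group, and 1 rose without shA replicate 1 or 3. Of 12 endothelial genes 1 rose, Eng, and 4 rose without shA replicate 1; the sums were 5291 to 19672 in knockdown and 4279 to 4889 in NTC libraries. Skeletal muscle sums were 219 to 10015 in knockdown and 168 to 364 in NTC libraries. Of 10 muscle genes 1 rose, Casq1, which reached the filter through knockdown libraries alone. No muscle gene rose without NTC replicate 1, 2 or 3 or shA replicate 2 or 3, whereas 2 rose without shA replicate 1 or shB replicate 1 and 5 without shB replicate 2. Acta1 and Myh1 were at 0 in 4 libraries each, Myh4 in 3 and Tnni2 in 1, and no marker of another list was at 0 in any library.

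Epithelial markers summed to 41530 to 69530 in knockdown and 35882 to 43413 in NTC libraries. Of 11 genes 2 rose, Cdh1 and Krt7, and 1 fell, Cdx2. Without shB replicate 1, 6 epithelial genes rose, while 3000 of all 14600 genes did, against 2258 in the main test. Without shA replicate 1, 2 epithelial genes fell. The Cdx2 call was lost without any single NTC library, shB replicate 2 or shB replicate 3 (limma adjusted p up to 0.132). Skin keratinocyte markers summed to 152 to 302 in knockdown and 123 to 146 in NTC libraries, and 1 of 3 rose, Lor. Adipocyte markers summed to 2136 to 4954 in knockdown and 1349 to 1750 in NTC libraries. Of 3 adipocyte genes Lipe and Pnpla2 rose, and leaving out NTC replicate 1 ended the call of Lipe. Cartilage and bone markers summed to 176 to 260 in knockdown and 186 to 219 in NTC libraries. Of 3 tested genes Runx2 and Acan rose and Sp7 fell. Acan reached the filter through knockdown libraries alone, and its call was lost without NTC replicate 1 or 3, shA replicate 3 or shB replicate 2.

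The summed collagen level was highest in shB replicate 1 and next in shA replicate 1. In shA replicate 1, the endothelial sum was 19672, against at most 6607 in any other library, and mitochondrial RNA took 6.60% of reads. Col4a1, Col4a2, Col5a3, Col6a1, Col6a2, Col7a1, Col15a1 and Col27a1 were at their highest there, as were the scarcer Col4a4, Col6a4, Col24a1 and Col26a1. In shB replicate 1, the skeletal muscle sum was 10015 against at most 2171 elsewhere. Col1a1, Col1a2, Col3a1, Col5a1, Col5a2, Col6a3, Col8a1, Col12a1, Col14a1 and the basement membrane gene Col18a1 were at their highest there. So were the scarcer Col8a2, Col19a1 and Col28a1. Without shA replicate 1, 11 collagen genes rose and 2 fell, and without shB replicate 1, 11 rose and 1 fell. Over all genes, 2353 rose and 1439 fell without shA replicate 1, and 3000 and 2498 without shB replicate 1. The main test had 2258 and 1386. NTC replicate 1 had the lowest levels of Col1a1 and Col1a2.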

How the data were processed

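Each deposited file holds 1 tumour library, with a gene symbol and a value, per the file headers. The deposited signal is a gene's read count over a library factor. The values show this: in each library 100% were whole multiples of a smallest step, within a tolerance of 0.001. The steps were the reciprocals of median-of-ratios size factors. Cuffdiff 2.2.1 and mm9 are named in the submitters' processing notes, with no role; aligner, counter and strand setting: not given in the sources used here. Reads were recovered by dividing by the step. In NTC replicate 2 the step of 1.00 was too near a whole number for the formal check, though the multiples held.

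The main test was limma 3.58.1 in R 4.3.3 on log2(value + 0.5), with a trended prior, 1 fit of 3 groups and Benjamini-Hochberg adjustment over all 14600 genes with 20 normalized reads in 3 libraries, of 17134 listed. Fold changes are on that scale. The added 0.5 and libraries near 0 weigh on those of low genes. Alternatives on the recovered counts were edgeR 4.0.16 and DESeq2 1.42.0; for both shRNAs edgeR called 2223 rising and 1276 falling genes and DESeq2 2678 and 1796, against 2258 rising and 1386 falling genes in limma. Replicates differed by more than counting error (chi-square per degree of freedom at least 7.82).

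The members and the lists were chosen with earlier results of these data known. Values per library are given for collagen genes with an adjusted p under 0.05 against NTC and for the 3 with the highest mean in each class; outside the collagens, up to 4 genes per list with the smallest p are named, and any other is stated as named after its values were seen. Exon lengths are from a GRCm38 annotation and promoters from RefSeq. A gene of the basement membrane partner list that the naming rule selects is not reported here.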

Additional observations from a re-analysis of the deposited data

How the results depend on the processing

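Over the 20 or 21 alternatives run for each gene, all 11 collagen genes called for both shRNAs against NTC kept their sign and 6 kept their call: Col1a2, Col8a1, Col8a2, Col9a3, Col14a1 and Col16a1. Of these, Col8a2 had reached the filter through knockdown libraries alone. When each library was left out in turn, the collagen counts for both shRNAs against NTC were 6 to 12 rising and 0 to 2 falling, those for shA 3 to 9 rising and 0 to 1 falling, and those for shB 6 to 13 rising and 0 to 2 falling. The main counts were 10 and 1, 7 and 1, and 10 and 1. Over all genes, 1483 to 3000 rose and 522 to 2498 fell for both shRNAs with 1 library left out. Falling collagen genes for both shRNAs numbered 8 with array weights, 5 without the first replicates of all 3 groups, and 3 with DESeq2. Falling calls also grew over all 14600 genes, to 4336, 2960 and 1796 in these settings, against 1386 in the main test. For shA alone, DESeq2 gave 11 rising genes, and the falling count was 4 with array weights, 3 without the first replicates, and 0 with a prior without trend, with only the groups compared, with the replicate block or with edgeR. For shB alone, the falling count was 8 with array weights, 4 without the first replicates, 2 with only the groups compared or with DESeq2, and 0 with a prior without trend or the replicate block. Over all genes, 2908 fell for shA and 4876 for shB with array weights, and 1629 and 3041 without the first replicates. The main test had 816 and 1025. Between shA and shB, array weights called 1 rising and 2 falling collagen genes, against none in the main test. Over all genes they called 738 rising and 658 falling. The weights had not converged. The cause of these changes was not tested.

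Among 21 uncalled genes, 15 passed in some alternative and 7 turned sign. Array weights called Col4a1, Col4a2 and Col4a5 as falling. Col4a2 was at -0.35 with array weights and -0.25 without the first replicates, Col27a1 at -0.36 and -0.49 under these, Col5a1 at -0.016 without the first replicates, and Col5a3 at 0.0026 with TMM scaling. With single libraries left out, the log2 change was -0.25 to 0.031 for Col4a1, -0.13 to 0.12 for Col4a2, -0.26 to 0.23 for Col5a3, -0.40 to 0.00088 for Col6a3, -0.082 to 0.82 for Col9a2 and -0.18 to 0.36 for Col27a1. The replicate block was not used in the main test, because libraries with the same number did not deviate together: the correlations of 9 pairs were -0.341 to 0.0579, and 0 libraries correlated best with their own number. Under the replicate block 2001 of all genes rose and 920 fell, against 2258 and 1386. With 3 libraries per group, intervals of most collagen genes span over 1 log2 unit, and for genes below about 20 normalized reads counting error limits any comparison.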
